A study of Mus musculus with 3 samples.

Results

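The glycolysis and hypoxia-responsive genes described here are a list of 39 mouse genes. They include the enzymes and transporters that carry glucose to pyruvate and lactate, and the kinases that switch off pyruvate dehydrogenase in mitochondria. The rest are 7 genes known for their response to low oxygen and the genes of both main oxygen-regulated alpha subunits, Hif1a and Epas1. Members were found among the array spots by the gene name in the files, or by current symbol through the accession or a synonym. Of the 39 genes 38 had a spot, on 99 of the 43379 non-control spots and 63 of the 41174 probes. Gapdh had no spot by this rule. The groups were embryonic stem (ES) cells labelled Tet1 KO #4 and Tet1 KO #22 (1 array each, called KO 4 and KO 22), set against ES cells labelled Tet1 WT (1 array). Every sample carried the labels of cell line V6.5 and a mixed 129 and C57BL6 background. The cells grew in medium with the cytokine LIF on irradiated feeder cells, which were depleted by preplating before RNA extraction, and RNA was labelled with Cy3. Tet1 encodes an enzyme that oxidises 5-methylcytosine in DNA, and the comparison asks which transcripts differ in its absence. The labels do not say whether the KO samples are separate clones or cultures, and the series' design line calls them mice. The spread behind each p-value is that between these samples and may be technical. WT has 1 array and no spread of its own.

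Glycolysis splits glucose into pyruvate in the cytosol, and lactate dehydrogenase can turn that pyruvate into lactate for export. Several steps are catalysed by isoenzymes from separate genes that differ between tissues. Hypoxia-inducible factors (HIF) are transcription factors whose alpha subunits are degraded in normal oxygen, and many glycolytic genes are among their targets. Mouse ES cells are known for high glycolytic activity even in normal oxygen.

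On each array the scanner software marked 62.2% to 62.8% of non-control spots as well above background and 0 as saturated. The Tet1 probe gave 213.8 on KO 4 and 195.4 on KO 22, against 720.9 on WT, a difference of -1.94 ± 0.09 that missed the threshold (limma adjusted p = 0.0529). Other settings did call it: an intensity trend gave an adjusted p of 0.000955, the deposited series matrix 0.0148 and a filter for signal above background on every array 0.0293, with a range of 6.7e-12 to 0.17 over all alternatives. Whether it lies inside the deleted stretch of Tet1 is not stated in the labels, so its value is no sure check of the genotypes. All 10 ES cell markers were well above background on every array. On both KO arrays 4 of them were above WT, 5 were below and 1 was split, with a median difference of -0.04. Pou5f1, which encodes Oct4, was among the lower ones, with 21200 on KO 4, 18958 on KO 22 and 25371 on WT. Nanog was among the higher ones, with 9356 on KO 4, 9323 on KO 22 and 7204 on WT. All the markers named here are described by value only. All 15 fibroblast markers were well above background on every array too. Their summed intensity, not scaled between arrays, was 40890 on KO 4 and 27320 on KO 22, against 20650 on WT. Tagln alone gave 19585, 12006 and 5090 of these sums. The median difference of the 15 markers from WT was 0.82 for KO 4 and -0.08 for KO 22. On both KO arrays 5 of them were above WT and 1 was below, while 9 were split. Col1a1, a fibroblast collagen gene, had 767.4 and 399.0 on KO 4 and KO 22, against 318.9 on WT, and Col3a1 had 369.3 and 143.1, against 146.5. In such bulk RNA fewer cells of a type and less RNA per cell cannot be told apart.

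All 38 genes with a spot were well above background on all 3 arrays, so the filter on dim probes removed none of them. Intensities below are the authors' processed spot values in arbitrary units, which were not scaled between arrays. Differences are on a log2 scale after subtraction of each array's 75th percentile (717.8 on KO 4, 644.9 on KO 22 and 623.7 on WT), and are KO minus WT with the standard error of limma (n = 2 KO arrays and 1 WT array). Moderation sets a minimum of 0.088 under every standard error, so an error of 0.09 is shared by all genes on which the KO arrays lay close together.

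The promoters of 4 members are shown because these, with Slc2a3, had the smallest p-values of the list. The sequences are from RefSeq on assembly GRCm38.p6 and run 5′ to 3′ on the gene's strand, from 250 bases before the start of transcription to 50 after it. Capitals mark ACGTG and GCGTG, the core letters of the HIF response element, and the same letters read from the other strand, CACGT and CACGC.
Hkdc1, chr10:62422408-62422707, minus strand: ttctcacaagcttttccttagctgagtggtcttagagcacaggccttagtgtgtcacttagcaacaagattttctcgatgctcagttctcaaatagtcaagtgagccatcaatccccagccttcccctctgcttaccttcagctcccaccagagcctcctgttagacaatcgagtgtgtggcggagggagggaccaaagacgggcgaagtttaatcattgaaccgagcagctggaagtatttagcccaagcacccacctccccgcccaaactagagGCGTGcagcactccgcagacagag
Pfkp, chr13:6648722-6649021, minus strand: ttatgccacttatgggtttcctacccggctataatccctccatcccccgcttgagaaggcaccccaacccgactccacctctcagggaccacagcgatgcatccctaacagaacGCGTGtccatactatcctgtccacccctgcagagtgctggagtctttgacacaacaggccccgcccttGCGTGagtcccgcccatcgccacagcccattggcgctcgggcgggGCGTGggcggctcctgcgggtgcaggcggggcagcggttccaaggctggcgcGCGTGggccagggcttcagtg
Ankrd37, chr8:45999801-46000100, minus strand: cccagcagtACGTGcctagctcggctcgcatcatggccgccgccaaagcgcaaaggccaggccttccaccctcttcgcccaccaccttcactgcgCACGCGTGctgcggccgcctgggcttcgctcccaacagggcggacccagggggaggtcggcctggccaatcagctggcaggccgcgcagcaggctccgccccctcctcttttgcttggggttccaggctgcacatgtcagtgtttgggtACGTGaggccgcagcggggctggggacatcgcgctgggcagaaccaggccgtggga
Vegfa, upstream start, chr17:46032328-46032627, minus strand: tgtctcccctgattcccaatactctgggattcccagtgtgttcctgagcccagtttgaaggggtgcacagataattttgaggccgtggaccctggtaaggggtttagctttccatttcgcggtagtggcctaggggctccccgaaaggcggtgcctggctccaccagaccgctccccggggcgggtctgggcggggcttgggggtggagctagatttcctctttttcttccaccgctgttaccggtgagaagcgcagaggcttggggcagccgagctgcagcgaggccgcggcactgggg
Vegfa, internal start, chr17:46025114-46025413, minus strand: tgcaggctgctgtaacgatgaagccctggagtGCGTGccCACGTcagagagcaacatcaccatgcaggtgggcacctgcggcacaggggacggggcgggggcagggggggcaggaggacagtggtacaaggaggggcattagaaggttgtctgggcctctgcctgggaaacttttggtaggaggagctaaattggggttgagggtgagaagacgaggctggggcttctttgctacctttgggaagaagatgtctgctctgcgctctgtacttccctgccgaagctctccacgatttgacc
The core stood once in the Hkdc1 promoter and 4 times each in those of Pfkp and Ankrd37, where one pair in Ankrd37 overlaps on opposite strands. It stood 0 times at the upstream Vegfa start and 2 times at the internal one. The table holds promoters of 35 members, 50 promoters in all, but not of Slc2a3, Slc2a4, Ndrg1 and Epas1. The core occurred in 39 of the 50 (78%), against 43.8% of all 32851 promoters of the same length. Of the 42 promoters of enzymes, kinases and transporters 32 held it, and of the 8 promoters of hypoxia-responsive genes and Hif1a 7 did. The most copies were the 7 in 1 of the Ldha promoters. The letters contain a CpG, and member promoters held a median of 19 CpG, against 7 for all promoters. The part of CpG content in the motif share was not tested. A match to these letters is not a bound site.

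The first question was which isoenzyme gave the brightest spot on each array. In each of the 9 families with several members the order of spot intensities was one and the same on KO 4, KO 22 and WT, and in the deposited series matrix values. These are intensities of different probes, and they set no order of RNA abundance. How far apart probes of 1 gene can lie is seen in Hk1, whose 6 probes ran from 8.42 to 8210 on WT. The isomerase gene Gpi1 had probes at 12.2 and 178796 there, and the 3 probes of Slc2a3 stood at 2.02, 68.1 and 107671. Each gene is given below by its brightest probe.

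**Figure D1:**
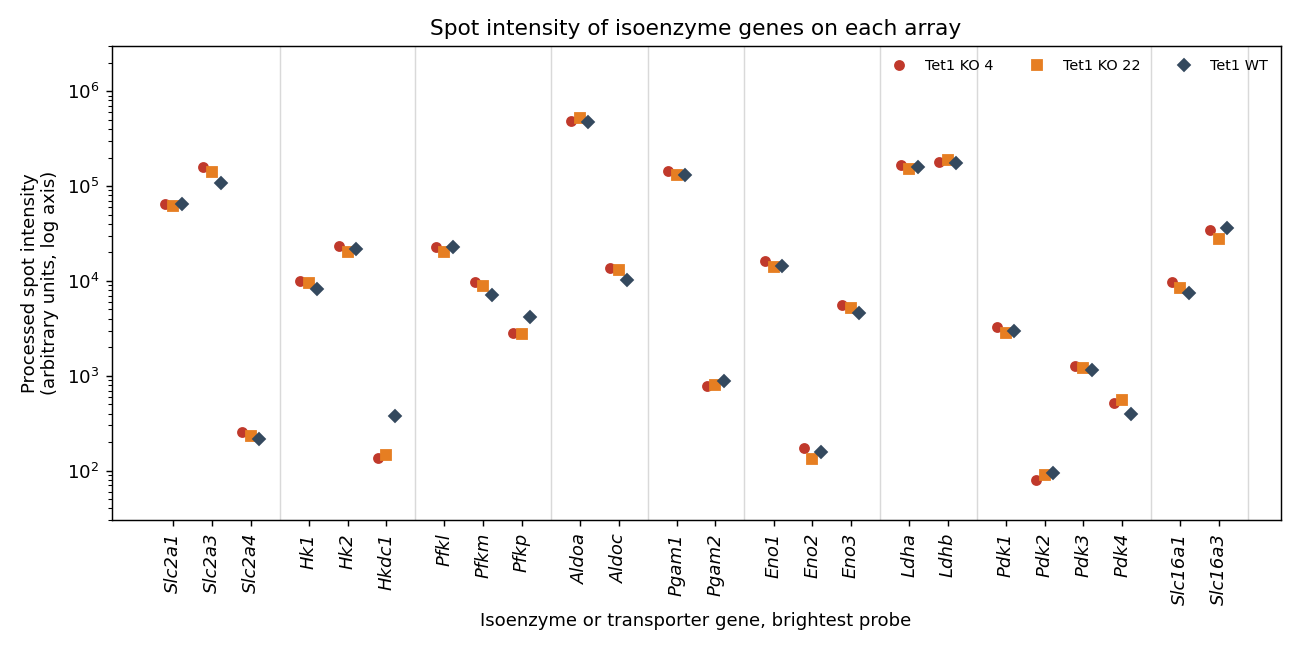
Processed spot intensity (arbitrary units, log axis) of the brightest probe of each isoenzyme or transporter gene, with 1 point per array: KO 4 (circles), KO 22 (squares) and WT (diamonds). Families are separated by grey lines, and within each the order of genes was the same on all 3 arrays, while Hkdc1 had 137.2 and 146.3 on the KO arrays, against 379.0 on WT.

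Among the facilitative glucose transporters the brightest spot was Slc2a3 (GLUT3, a high-affinity transporter), with 159580 on KO 4 and 140672 on KO 22, against 107671 on WT. Slc2a1 (GLUT1, the widespread basal transporter) had 65500 and 62075, against 64779 on WT. Slc2a4 (GLUT4, the insulin-responsive transporter of muscle and fat) was dim, with 253.8 and 230.9, against 215.4 on WT. The Slc2a3 spot was 2.44 and 2.27 times as bright as the Slc2a1 spot on KO 4 and KO 22, against 1.66 times on WT.

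Hexokinases trap glucose in the cell as glucose 6-phosphate. Hk2, the isoform known for its induction by insulin and hypoxia, had the brightest spot, with 23345 on KO 4 and 20311 on KO 22, against 21770 on WT. Hk1, the common housekeeping form, had 9949 and 9461, against 8210 on WT. Hkdc1, a hexokinase domain gene next to Hk1, was dimmest on every array. For phosphofructokinase, which commits sugar to glycolysis, the order was Pfkl (the liver type), Pfkm (the muscle type) and Pfkp (the platelet type). Pfkl had 23043 and 20063 on KO 4 and KO 22, against 22757 on WT, Pfkm had 9772 and 8804, against 7028, and Pfkp had 2820 and 2789, against 4171.

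The aldolase Aldoa, which cleaves fructose 1,6-bisphosphate, had one of the brightest spots on each array. With 480819 on KO 4, 516304 on KO 22 and 475950 on WT it ranked 2, 1 and 3 of all probes. Its brain-enriched relative Aldoc had 13643 and 13176 on KO 4 and KO 22, against 10261 on WT. The phosphoglycerate mutase Pgam1 had 143647 and 131689, against 129630 on WT, while the muscle form Pgam2 stayed at 787.2 and 796.6, against 875.3. Among enolases, the broadly expressed Eno1 had 16148 and 13999, against 14282 on WT. The muscle form Eno3 had 5583 and 5179, against 4540, and the neuronal form Eno2 had 171.9 and 132.9, against 158.4.

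Both lactate dehydrogenase genes were bright and close together. Ldhb, the heart-type subunit, had 179927 on KO 4 and 189640 on KO 22, against 173056 on WT, and Ldha, the muscle-type subunit, had 165173 and 151707, against 160459. The Ldhb spot was 1.09 and 1.25 times as bright as the Ldha spot on KO 4 and KO 22, against 1.08 times on WT, which at this closeness says nothing of which RNA was more abundant. The lactate exporter Slc16a3 (MCT4) had the brighter spot of its pair, with 34749 and 27836 on the KO arrays, against 35928 on WT. Slc16a1 (MCT1) had 9853 and 8528, against 7391.

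Pyruvate dehydrogenase kinases phosphorylate and switch off the complex that feeds pyruvate into the mitochondrial citric acid cycle. Their spots stood in the order Pdk1, Pdk3, Pdk4 and Pdk2. Pdk1, a known HIF target, had 3248 on KO 4 and 2796 on KO 22, against 2992 on WT. Pdk2 was dimmest, with 79.3 and 90.2, against 94.0 on WT. Pdk3 had 1280 and 1197 on the KO arrays, against 1155 on WT, and Pdk4 had 521.5 and 557.6, against 393.3.

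Of the steps served by a single member, Gpi1 (the isomerase after hexokinase) and Pgk1 (phosphoglycerate kinase, the first ATP-yielding step) had the brightest spots. Gpi1 had 213045 and 217733 on KO 4 and KO 22, against 178796 on WT, and Pgk1 had 197397 and 193295, against 186232. Triose phosphate isomerase Tpi1 had 100442 and 88312, against 88063 on WT, and the pyruvate kinase gene Pkm had 93578 and 94794, against 85922. These spots ranked high on every array, with Gpi1 at 77, 65 and 90 and Pgk1 at 85, 87 and 85 of all probes on KO 4, KO 22 and WT.

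Gapdh, the dehydrogenase that follows aldolase and triose phosphate isomerase, had no spot named for it. A probe that the files name only by a number, the gene ID of Gapdh in the reference table, was dim, with 222.9 and 202.8 on KO 4 and KO 22, against 182.9 on WT, a mean difference of 0.09. It fell outside the rule and is given by value only. Of 14 probes described as Gapdh-like, 10 had over 10000 units on WT, from 31027 to 212812. Their mean differences ran from -0.10 to 0.16 with a median of 0.02. Which of them read Gapdh RNA itself was not tested.

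The second question was whether KO 4 and KO 22 differed from WT. No member passed the threshold of an adjusted p of 0.05: limma called 0 of 38, where it called 63 of 17709 genes (0.356%). With an intensity trend in the variance it called 6 members, where it called 19% of all genes. At an unadjusted p under 0.05 stood 5 members, Slc2a3 and Vegfa with higher values and Hkdc1, Pfkp and Ankrd37 with lower ones, where 28.2% of all genes did. These 5 make 13.2% of the 38, a share below that background. On both KO arrays 13 members were above WT (38% of all genes), 18 were below it (45.5% of all genes) and 7 were split. The median difference of the members was -0.04, with -0.07 on KO 4 and 0.00 on KO 22, beside -0.03 for all genes. It turned to 0.01 in the series matrix and after quantile normalization, where all genes had -0.01 in each. Every difference shares the 1 WT array, so a value of WT alone moves KO 4 and KO 22 together.

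**Figure D2:**
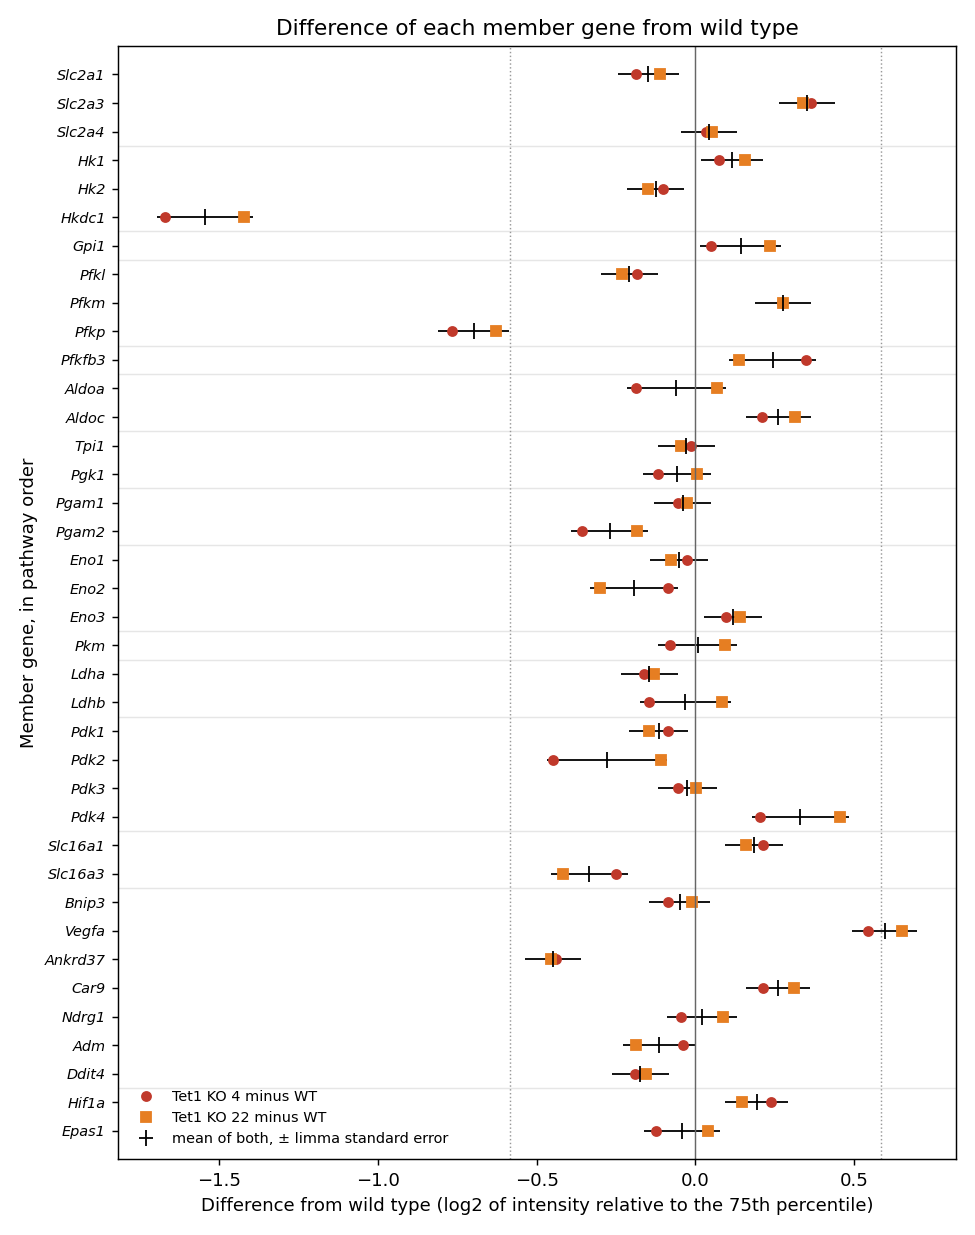
Difference from WT (log2) of each of the 38 members in pathway order, as KO 4 minus WT (circles), KO 22 minus WT (squares) and their mean with the standard error of limma (bars, n = 2 KO arrays and 1 WT array); dotted lines mark 1.5-fold. Hkdc1 and Pfkp lie beyond 1.5-fold on both KO arrays, and no member passed the adjusted threshold.

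Differences of at least 1.5-fold on both KO arrays were seen for 2 members, both lower, Hkdc1 and Pfkp, and for 0 on the higher side. Over all genes 4.41% were that much lower and 5.16% that much higher, 9.57% in all. At 2-fold only Hkdc1 remained, where 3.01% of all genes differed. Most members lay close to WT: 31 of them (81.6%) had a mean difference under 0.3 in size, against 63.4% of all genes, and the median size was 0.15, against 0.22. The members also differed less between the KO arrays, with an SD of 0.13 for KO 4 minus KO 22, against 0.33 over all genes. The part of spot brightness in these shares was not tested. After quantile normalization the count of 1.5-fold members was 1, with no share of all genes given for that setting.

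**Figure D3:**
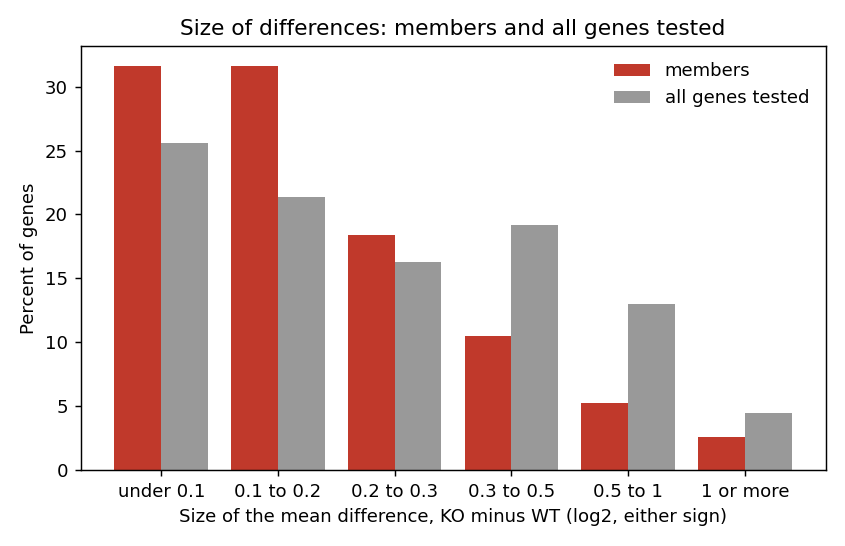
Percent of genes by size of the mean difference KO minus WT (log2, either sign), for the 38 members (left bars) and all 17709 genes tested (right bars). In the bin under 0.1 stand 31.6% of members and 25.6% of all genes, and in the bin of 1 or more 2.63% and 4.47%.

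Hkdc1 had the largest difference of the list. Its intensities were 137.2 on KO 4 and 146.3 on KO 22, against 379.0 on WT. Both KO arrays were below WT, at differences of -1.67 and -1.42, and lay 0.25 apart, a larger gap than that of most members. The mean of -1.54 ± 0.15 is a 2.92-fold lower value and did not pass (limma adjusted p = 0.0971). It passed with a filter that keeps only genes above background on all 3 arrays (adjusted p = 0.0414), in the series matrix values (0.0252) and with an intensity trend in the variance (0.00389), with a range of 1.15e-10 to 0.17 over all alternatives. Hkdc1 has 1 probe, at chr10:61901912-61901971 on build mm7 per the files, so no other probe of the gene repeats the value.

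Pfkp had 2820 on KO 4 and 2789 on KO 22, against 4171 on WT. Both KO arrays were lower, by -0.77 and -0.63, with a mean of -0.70 ± 0.11, 1.62-fold (adjusted p = 0.107). Its 3 probes all read lower on both KO arrays, with means from -0.70 to -0.50. The main probe is listed at chr13:6475782-6477936 on mm7. The other phosphofructokinase genes did not share this direction throughout. Pfkm stood at 0.27 ± 0.09 (adjusted p = 0.18) with 0.27 on KO 4 and 0.28 on KO 22, and Pfkl at -0.21 ± 0.09 (adjusted p = 0.255). Pfkfb3, which makes the activator fructose 2,6-bisphosphate, had 5593 and 4340 on KO 4 and KO 22, against 3814 on WT, a difference of 0.24 ± 0.14 (adjusted p = 0.336), and its 3 probes were all above WT.

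Slc2a3 stood at 0.36 on KO 4 and 0.34 on KO 22, a mean of 0.35 ± 0.09 (1.28-fold, adjusted p = 0.145). Its probe at chr6:122764878-122764937 (mm7) and a second, dim probe with a mean of 0.64 were on the same side, and the remaining one was not above background. The other transporters were nearer to WT, with -0.15 ± 0.10 for Slc2a1 and 0.04 ± 0.09 for Slc2a4. Hk1 and Hk2 differed by 0.12 ± 0.10 and -0.13 ± 0.09. Gpi1 differed by 0.14 ± 0.13 on its main probe, while its dim second probe, at 23.4 and 37.1 on KO 4 and KO 22, against 12.2 on WT, gave 1.14.

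The enzymes of the lower glycolytic pathway lay within 0.3 of WT by mean difference, and the signs of Aldoa, Tpi1, Eno1 and Ldhb turned after quantile normalization. Aldoa had -0.06 ± 0.16, with -0.19 on KO 4 and 0.07 on KO 22, and Aldoc had 0.26 ± 0.10 with both its probes above WT. Tpi1, Pgk1, Pgam1 and Eno1 ran from -0.06 to -0.03. Eno2 had -0.19 ± 0.14 and Eno3 had 0.12 ± 0.09. Pgam2 was at -0.27 ± 0.12, with -0.36 and -0.18 on KO 4 and KO 22. Pkm was at 0.01 ± 0.12, with opposite signs on KO 4 (-0.08) and KO 22 (0.09). Ldha differed by -0.15 ± 0.09 and Ldhb by -0.03 ± 0.14. Adjusted p-values in this group ran from 0.225 for Aldoc to 0.977 for Pkm.

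At the exit of the pathway the transporters pointed in opposite directions. Slc16a3 had -0.33 ± 0.12 (adjusted p = 0.206), with -0.25 on KO 4 and -0.42 on KO 22. Slc16a1 had 0.18 ± 0.09 (adjusted p = 0.293), and its 3 probes were all above WT at means from 0.18 to 0.51. Among the kinases Pdk4 had 0.33 ± 0.15 (adjusted p = 0.27) and Pdk2 had -0.28 ± 0.19 (adjusted p = 0.41), while Pdk1 had -0.12 ± 0.09 and Pdk3 -0.03 ± 0.09. None of these 6 passed.

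The hypoxia-responsive genes showed no common direction: of the 9 genes in this group, which includes the HIF alpha subunits, 3 were above WT on both KO arrays, 4 below and 2 split, with a median difference of -0.04. Vegfa, the secreted growth factor for blood vessels, had 3284 on KO 4 and 3175 on KO 22, against 1957 on WT. Its difference was 0.60 ± 0.10 (1.51-fold, adjusted p = 0.112), with 0.54 and 0.65. Its main probe, at chr17:44147967-44148026 on mm7, was spotted 10 times per array. The spots ran from 2967 to 3483 on KO 4 and from 2935 to 3377 on KO 22, against 1879 to 2088 on WT. On the scaled log2 values KO and WT did not overlap either (2.05 to 2.28 and 2.19 to 2.39, against 1.59 to 1.74). Unscaled spots of Gpi1 did not overlap with WT, but its scaled KO 4 range (8.168 to 8.247) lay within that of WT (8.100 to 8.252). Its scaled KO 22 range (8.315 to 8.460) lay above WT. Spots of Slc2a4 and Pgk1 overlapped with WT on both scales. Repeated spots show the spread within an array and not between cultures. The share of all repeated probes whose spots separate from WT was not counted. The separation of the Vegfa spots is therefore a description only. The 3 probes of Vegfa gave means from 0.28 to 0.60.

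Ankrd37, an ankyrin-repeat gene known as a HIF target, had 2271 on KO 4 and 2019 on KO 22, against 2675 on WT. It stood below WT by nearly the same amount on both, -0.44 and -0.45, with a mean of -0.45 ± 0.09 (1.36-fold lower, adjusted p = 0.121). Its 1 probe is at chr8:44774913-44774972 on mm7. Ddit4 (REDD1, a stress-induced inhibitor of mTORC1 signalling) was the brightest of the group, with 101303 and 93306, against 100520 on WT, a difference of -0.17 ± 0.09. Bnip3, a mitophagy receptor, had 24663 and 23366, against 22759 on WT, and differed by -0.05 ± 0.10, which turned to 0.03 after quantile normalization. Ndrg1 (a differentiation and stress response gene) had 8952 and 8818, against 8026, and differed by 0.02 ± 0.11.

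Of the remaining genes of this group Car9, Adm and Epas1 were dim, and Hif1a was brighter. Car9, the carbonic anhydrase widely used as a hypoxia marker, had 98.1 and 94.4 on KO 4 and KO 22, against 73.6 on WT, and differed by 0.26 ± 0.10 (adjusted p = 0.221). Adm, the vasodilator peptide adrenomedullin, had 506.6 and 411.0, against 452.6, and differed by -0.11 ± 0.11. Hif1a, the widespread alpha subunit, had 1497 and 1264, against 1103 on WT, and differed by 0.19 ± 0.10 (adjusted p = 0.302). Epas1, which encodes HIF-2 alpha, had 82.5 and 83.0, against 78.1, and differed by -0.04 ± 0.12. RNA levels of the alpha subunits do not show their protein, which is set mainly by degradation.

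**Figure D4:**
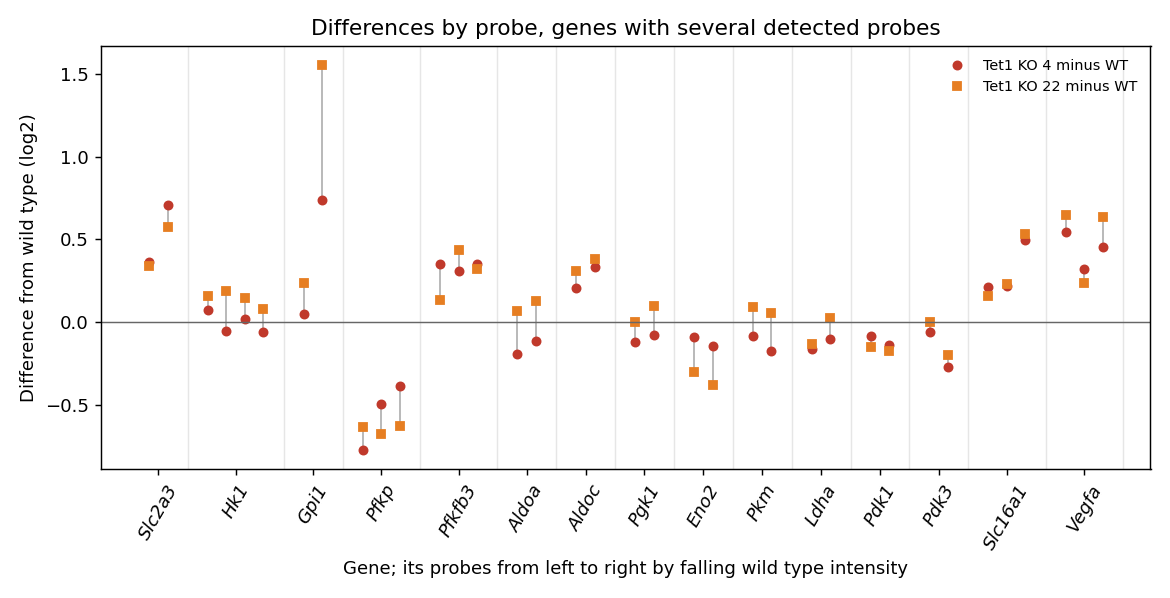
Difference from WT (log2) of every probe well above background on all 3 arrays, for the 15 members with several such probes, as KO 4 minus WT (circles) and KO 22 minus WT (squares). All probes of Pfkp lie below 0 and all of Vegfa, Slc2a3, Slc16a1 and Pfkfb3 above it, while the dim second probe of Gpi1 lies at 0.74 on KO 4 and 1.55 on KO 22.

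For 15 members several probes were above background on all arrays, which gives a second reading of the same RNA. For 9 of them every probe was on one side of WT on both KO arrays: Slc2a3, Gpi1, Pfkp, Pfkfb3, Aldoc, Eno2, Pdk1, Slc16a1 and Vegfa. For the other 6, Hk1, Aldoa, Pgk1, Pkm, Ldha and Pdk3, signs were mixed, and the means of their probes ran from -0.23 for Pdk3 to 0.12 for Hk1. Probes of a gene share the sample and the array, so they add no replicate. The summed fibroblast markers given above were higher on both KO arrays than on WT. On KO 22 their median difference was -0.08, and Tagln had 12006, against 5090 on WT. Of the 15 markers 5 were above WT on both KO arrays, 1 was below and 9 were split. The part of feeder cell RNA in the members' values was not tested.

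Other genes of the same pathways were counted from 5 lists, of which 93 of 106 genes were tested. limma called 1 higher and 0 lower, beside the 0.0339% and 0.322% of all genes called in these directions. On both KO arrays 3 were at least 1.5-fold higher and 4 lower, beside 5.16% and 4.41% of all genes. The called gene was Slc2a12, a glucose transporter, with 23.5 on KO 4 and 20.7 on KO 22, against 3.10 on WT, which was not well above background. On the reported scale Slc2a12 was at least 2.07-fold higher (limma adjusted p = 0.0346). But it was tested only because the KO arrays were above background, so it had to differ. Its call rests on a WT value that is only a bound. Without a filter on dim probes the call was absent (adjusted p = 0.17), but limma called 0 of 27654 genes there, so this is not particular to Slc2a12. With normexp background correction the sign turned (-1.84), and without 5 outlying WT spots in that correction the difference was 0.15 (adjusted p = 0.364). The call held after quantile normalization (2.70), in the series matrix (1.08), with the mean of probes and with an intensity trend. All of these use the same dim WT spot.

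Among the other glycolytic isoenzymes and transporters, Ldhal6b, a lactate dehydrogenase-like gene, had 84.9 and 82.2 on KO 4 and KO 22, against 198.2 on WT, a difference of -1.37 ± 0.10 (adjusted p = 0.0855). Fbp1, which runs the phosphofructokinase step backwards in gluconeogenesis, had 146.7 and 150.8, against 294.2, a difference of -1.11 ± 0.13 (adjusted p = 0.1). Ldhc, the testis lactate dehydrogenase, had 1298 and 1482, against 714.4 on WT, a difference of 0.83 ± 0.19 (adjusted p = 0.134). In this list 14 of 21 genes were below WT on both KO arrays and 4 above, where 45.5% of all genes were below and 38% above, and the median was -0.11. At an unadjusted p under 0.05 stood 2 with higher and 6 with lower values, where 28.2% of all genes did in either direction.

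Of 11 tested genes for pyruvate entry into mitochondria and its use there, 6 were above WT on both KO arrays and 5 below. Of these 11 limma called 0, and 3 stood at an unadjusted p under 0.05, near the 28.2% of all genes. Dlat (a pyruvate dehydrogenase subunit) and Mpc2 (a pyruvate carrier subunit) stood at 0.30 ± 0.09 and 0.29 ± 0.12. Pdp1, the phosphatase that opposes the Pdk kinases, stood at -0.47 ± 0.12 and Pcx, pyruvate carboxylase, at -0.41 ± 0.16. Of 14 genes for the pentose phosphate branch and glycogen, limma called 0, with 5 at an unadjusted p under 0.05, beside the same 28.2% of all genes. Pygl, liver glycogen phosphorylase, had 1336 and 1492 on KO 4 and KO 22, against 706.7 on WT, a difference of 0.87 ± 0.18 (adjusted p = 0.124). Pgm2 stood at 0.38 ± 0.24, the glycogen synthase gene Gys1 at -0.62 ± 0.10 and the glucose 6-phosphate dehydrogenase gene G6pd2 at -0.59 ± 0.15.

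In the oxygen-sensing machinery limma called 0 of 13 genes and 3 stood at an unadjusted p under 0.05 (28.2% of all genes), with a median of -0.12. Arnt2, an HIF beta-type partner, had 22.6 and 21.5 on KO 4 and KO 22, against 40.1 on WT, a difference of -0.99 ± 0.10 (adjusted p = 0.0971). Cited2, which competes with HIF for its coactivator, had 2976 and 2600, against 1737, a difference of 0.55 ± 0.09 (adjusted p = 0.108). The ubiquitin ligase gene Vhl, which marks HIF alpha for degradation, stood at 0.28 ± 0.13, and Hif1an, the asparaginyl hydroxylase that restrains HIF, at -0.47 ± 0.15 on its brightest probe but at 0.03 as the mean of its probes. Of 39 other HIF target genes 18 were above WT on both KO arrays and 16 below, with a median of 0.03, 0 calls by limma and 11 at an unadjusted p under 0.05, the same share as the 28.2% of all genes. Rora stood at 0.61 ± 0.10 and Kdm4b at -0.57 ± 0.09, while Gys1, given above, is also in this list.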

How the data were processed

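RNA of 3 samples was read on Agilent 1-colour arrays. The deposited scanner files hold intensity values from Agilent Feature Extraction 10.1.1.1. The deposited processed signal had its background subtracted and was detrended array by array, and surrogates stand in for dim values, per the file headers. It was not scaled between arrays. Detection and outlier flags of the same software were used as deposited. The deposited series matrix holds log2 values whose 3 columns share their quantiles. The submitters' processing notes name limma, with no version, and its background treatment is unknown.

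Processed intensities were divided by the 75th percentile of the non-control spots of their array and put on a log2 scale. Spots flagged as outliers were dropped, which removed 39 probes flagged on every spot of an array, and the remaining spots of a probe were averaged. Probes were named through the reference table (GRCm38.p6) by accession, symbol or synonym, which matched 32719 of 41174 (79.5%), and otherwise kept the name in the file. Probe positions come from the files (build mm7). Testing required a probe to be well above background on 1 array or more, and each gene was represented by its brightest probe. A gene dim on all arrays of a group has only a bound, which sets the mean of the bright group against the higher of the dim value and the lowest signal well above background on that array.

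Groups were compared with limma 3.58.1 (lmFit and eBayes, R 4.3.3), with Benjamini-Hochberg adjustment over 17709 genes. The fit had 1 residual degree of freedom, 3.03 after moderation, and assumes that the lone WT array varies like the KO arrays. The steps were tested on simulated data. Alternatives were normexp background correction (offset 50), as planned and without 5 spots far below their background, quantile normalization, the series matrix values, other filters on dim probes, the mean of a gene's probes, an intensity trend in eBayes, and either KO array left out.

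The members and gene lists were chosen with earlier results of these data known. Named are all members, Tet1, Pou5f1, Col1a1, Col3a1 and, of each other list, the 2 largest positive and 2 largest negative differences among genes above background on all arrays with both KO arrays on one side of WT. Slc2a12 was named because it was the only call in those lists. Not every gene this rule names is reported here. The number of arrays limits the precision.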

Additional observations from a re-analysis of the deposited data

How the results depend on the processing

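No paired analysis was possible because WT has 1 array and its label carries no replicate number. Without a replicate in WT the test cannot separate genotype from culture or clone. Leaving out KO 4 or KO 22 gave a median difference of 0.00 and -0.07 and counts of 1.5-fold members of 3 and 2. Such a count rests on the 1 KO array that remains, a looser rule than 1.5-fold on both. No share of all genes stands beside it. Calls cannot be computed with a KO array left out, since no residual degree of freedom remains.

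The call of 0 members held after quantile normalization and with the mean of probes, where limma called 55 and 63 of all genes. Without a filter it called 0 of 27654 genes, so 0 members there says nothing about the members. The number of members called was 1 (Hkdc1) in the series matrix values and where genes were above background on all arrays. It was 5 with normexp without outlying spots, 6 with an intensity trend and 31 with normexp as planned. Over all genes these last 5 settings called 1013 (5.72%), 911 of 16405 (5.55%), 3315 (18.7%), 3372 (19%) and 13845 (78.2%). As reported the number was 63 (0.356%). The 5 WT spots far below their background distort normexp as planned, which moved the median of all genes to -0.20. The trend called Slc2a3, Pfkm and Vegfa higher and Hkdc1, Pfkp and Ankrd37 lower, beside 19% of all genes. The median of members was 0.44 with normexp as planned, 0.012 after quantile normalization and 0.0097 in the series matrix. The count of 1.5-fold members was 12 with normexp as planned, 1 after quantile normalization and 1 with the mean of probes. The 9.57% of all genes at 1.5-fold belongs to the reported setting, so these counts have no share of all genes beside them. In the other lists the calls numbered 71 with normexp as planned, 29 without outlying spots, 29 with a trend, 4 in the series matrix and 4 above background on all arrays. They numbered 0 without a filter, where no gene was called at all.

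With normexp as planned the sign turned for 17 members: Slc2a1 (0.42), Slc2a4 (-0.53), Hk2 (0.44), Pfkl (0.36), Aldoa (0.50), Tpi1 (0.49), Pgk1 (0.51), Pgam1 (0.49), Eno1 (0.44), Ldha (0.45), Ldhb (0.56), Pdk1 (0.29), Pdk3 (0.21), Slc16a3 (0.22), Bnip3 (0.48), Car9 (-1.23) and Ddit4 (0.37). It also turned for Slc2a12 (-1.84), Pgm2 (-0.23) and Rora (-0.56). Without outlying spots it turned for Pkm (-0.032), Ldhb (0.019) and Pdk3 (0.016). After quantile normalization it turned for Aldoa (0.12), Tpi1 (0.045), Eno1 (0.018), Ldhb (0.0067) and Bnip3 (0.033), in the series matrix for Aldoa (0.083), Tpi1 (0.026), Ldhb (0.049) and Pdk3 (0.025), and with the mean of probes for Pkm (-0.026) and Hif1an (0.031). Beyond the normexp distortion, the cause was not tested.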

Other observations

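Hkdc1 and Hk1 lie near Tet1 on chromosome 10, at 430.2 and 544.2 kb from the Tet1 probe on build mm7. The genes around Tet1 were therefore listed, a choice made after the value of Hkdc1 was seen. Within 1500 kb of the Tet1 probe 36 other genes were tested. Of these, Hkdc1 and Srgn, the proteoglycan serglycin at 318.9 kb, were at least 1.5-fold lower on both KO arrays, and Col13a1, a transmembrane collagen gene at 975.1 kb, was that much higher. These 3 make 8.33% of the 36, beside 9.57% of all genes. The share includes Hkdc1, which prompted the list, and depends on the window, so it is no test of the region. Srgn had 226.7 on KO 4 and 173.5 on KO 22, against 1970 on WT, a difference of -3.44 ± 0.14 (limma adjusted p = 0.0442), and Col13a1 had 199.1 on KO 4 and 197.1 on KO 22, against 104.5 on WT. Between Hkdc1 and Tet1 lie 7 tested genes, and the median difference of all 36 was -0.01. Hk1, farther out than Hkdc1, stood at 0.12.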
